A study of Mus musculus with 8 samples.

Results

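The 10 genes described here act on procollagen inside and just outside the cell: the prolyl 4-hydroxylase subunits P4ha1, P4ha2, P4ha3 and P4hb, the lysyl hydroxylases Plod1, Plod2 and Plod3, the prolyl 3-hydroxylase P3h1, the collagen chaperone Serpinh1 (HSP47) and the procollagen C-proteinase enhancer Pcolce2. They were taken by gene symbol from tables of 24028 genes, and all 10 passed the filter on low counts that left 14575 genes for testing. RNA came from 8 tumours of TRAMP-C2 cells, an established epithelial prostate adenocarcinoma line from a TRAMP transgenic mouse. The same number of cells was placed in the dorsolateral prostate of syngeneic, immune-competent male C57BL/6 hosts, and tumours were taken 30 to 45 days later. The aged hosts were 20 to 24 months old (19 injected, 4 tumours sequenced) and the young hosts 4 months old (20 injected, 4 sequenced). Each tumour is named by host group and mouse number. All 8 tumours share the line and the injection, and no untreated prostate or uninjected host was part of the comparison. Bulk RNA was read, so fewer cells of a type and less RNA per cell cannot be told apart.

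Collagen chains are modified in the endoplasmic reticulum before they fold. Prolyl 4-hydroxylase, a tetramer of alpha subunits that hold the catalytic site and beta subunits (protein disulphide isomerase, the product of P4hb), makes the hydroxyproline that keeps the triple helix stable at body temperature. Lysyl hydroxylases prepare lysines for sugars and for cross-links, the P3h1 complex modifies selected prolines, and HSP47 binds the folded helix until it leaves the reticulum. Outside the cell the C-terminal propeptide is cut off by BMP1-type proteinases, which the enhancer proteins encoded by Pcolce and Pcolce2 assist. The hydroxylases need oxygen, iron and 2-oxoglutarate, and P4ha1, P4ha2, Plod1 and Plod2 are known targets of hypoxia-inducible factors.

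The libraries held 27.1 M to 35.7 M fragments. Markers of the labelled epithelial identity were uneven. Krt8, a simple-epithelial keratin, stood at 4.49 to 7.01 log2 CPM, and the adhesion molecule gene Epcam ran from -0.40 log2 CPM in young 43 to 6.06 in aged 50. Bulk RNA does not tell transcripts of the line from those of host epithelium. The 6 seminal vesicle markers summed to 21249 CPM (fragment counts scaled by library total) in aged 50 and 35172 in young 36, but to at most 17.1 CPM in the other 6 tumours, so the fold changes of the members are also given without those 2. The 6 prostate secretory markers summed to 11120.4 CPM in young 37, 4844 in aged 50, 1251 in young 36 and at most 198 CPM in the other 5, so an exclusion of these 3 tumours was added after the data were seen. The 6 skeletal muscle markers summed to 114 CPM in aged 51 and to 10.4 to 39.6 CPM elsewhere.

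Upstream sequence is shown for the 3 members with the smallest p-values of the comparison, which were lower in aged tumours, and for Pcolce2, the 1 member that was higher. The stretches are from the RefSeq promoter table (GRCm38.p6), 5′ to 3′ on the strand of the gene, and end where the first annotated exon begins. Capitals mark ACGTG or GCGTG on either strand (CACGT and CACGC on the other), the core letters of a hypoxia response element. P4ha1 is at chr10:59323046-59323196 (plus strand, 151 bases), P4ha2 at chr11:54100674-54100923 (plus strand), Serpinh1 at chr7:99353240-99353489 (minus strand) and Pcolce2 at chr9:95637378-95637600 (plus strand, 223 bases).
P4ha1: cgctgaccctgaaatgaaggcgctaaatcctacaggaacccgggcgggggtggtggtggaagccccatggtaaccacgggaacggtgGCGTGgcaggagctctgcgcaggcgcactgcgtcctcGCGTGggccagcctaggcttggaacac
P4ha2: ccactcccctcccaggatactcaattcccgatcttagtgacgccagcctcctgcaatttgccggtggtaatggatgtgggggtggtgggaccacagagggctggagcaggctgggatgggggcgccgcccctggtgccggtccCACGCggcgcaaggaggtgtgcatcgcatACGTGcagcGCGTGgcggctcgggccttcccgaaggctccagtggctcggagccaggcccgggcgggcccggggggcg
Serpinh1: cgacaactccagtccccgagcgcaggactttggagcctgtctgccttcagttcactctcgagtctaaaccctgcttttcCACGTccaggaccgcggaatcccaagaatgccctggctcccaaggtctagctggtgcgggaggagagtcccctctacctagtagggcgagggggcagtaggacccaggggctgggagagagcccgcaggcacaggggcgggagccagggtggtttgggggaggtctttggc
Pcolce2: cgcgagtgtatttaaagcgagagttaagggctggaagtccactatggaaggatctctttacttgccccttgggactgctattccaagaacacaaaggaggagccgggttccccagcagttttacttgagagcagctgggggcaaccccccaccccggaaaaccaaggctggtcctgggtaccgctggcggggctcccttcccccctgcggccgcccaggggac

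In the 250 bases before the RefSeq start, P4ha1 held 2 GCGTG matches, 163 and 126 bases upstream, and 1 ACGTG match 16 bases upstream that lies past the stretch shown, inside an annotated transcript. P4ha2 held 3 matches between 107 and 65 bases upstream, and Serpinh1 held 1, at 171 bases. Pcolce2 and P4ha3 held none, which says only that these letters are not in the window. Of the 9 members with an entry (Plod2 has none), 7 held ACGTG or GCGTG in at least 1 promoter. Counted by promoter, 8 of their 10 held either, against 53.5% of the 14556 promoters of tested genes and 38.6% of all 32851. CCAAT, the letters bound by NF-Y, was found on either strand in P4hb, Plod3 and P3h1, 3 of 9 members, and nowhere in the stretches shown. Counted by promoter, 4 of 10 held it, against 34.9% of promoters of tested genes. CCAAT followed after 9 bases by CCACG, the endoplasmic reticulum stress element, was found in 0 of 9 members and in 0.131% of the promoters of tested genes. A match of letters is a description and not a binding site.

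Between the host ages, 9 of the 10 members had lower values in aged tumours, against 44.7% of all genes tested, and Pcolce2 was higher. P4ha1, P4ha2 and Serpinh1 were 1.65, 1.61 and 1.51 times as high in young tumours by the fitted fold change, the mean of Pcolce2 was 3.49 times as high in aged tumours, and the other 6 differed less. By edgeR's quasi-likelihood test with Benjamini-Hochberg adjustment over all genes, 0 of the 10 passed 0.05, as did 0% of all genes. At an unadjusted p of 0.05, edgeR gave 5 members lower (P4ha1, P4ha2, Serpinh1, Plod3 and Plod2), where 2.66% of all genes were, and 1 higher (Pcolce2), where 2.34% were. Over both directions that is 6 members against 4.99% of genes. On log2 CPM with TMM scaling, a correction for library make-up, the values of the host ages were fully separated for 4 members lower (P4ha1, P4ha2, Plod3 and Serpinh1), against 2.31% of all genes, and for 1 higher (Pcolce2), against 1.35%. The 5 members together stand against 3.66% of genes. The members were chosen with earlier results of these data known, that of P4ha1 among them, so their shares beside those of all genes are a description. The median log2 fold change (aged over young) of the members was -0.31, and that of all genes tested 0.03. DESeq2 called P4ha1, P4ha2 and Serpinh1 at its adjusted threshold, where it called 0.179% of genes lower, and limma voom called P4ha1 and Serpinh1, where it called 0.0343% lower. In either direction DESeq2 called 0.297% and limma voom 0.0617% of genes. All 3 tools read the same counts, so these calls are not independent of each other. Without aged 50 and young 36, the log2 fold change was -0.54 for P4ha3, -0.14 for P4hb, -0.11 for Plod1, -0.29 for Plod3 and -0.38 for P3h1, and 9 of 10 members were lower. Without young 37 as well, which leaves 3 aged and 2 young tumours, P4ha1 had -0.65, P4ha2 -0.46, Serpinh1 -0.64 and Pcolce2 2.09. P4hb then had -0.05, 9 of 10 members were lower, as were 50.3% of all genes, and 0 genes passed by edgeR.

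**Figure D1:**
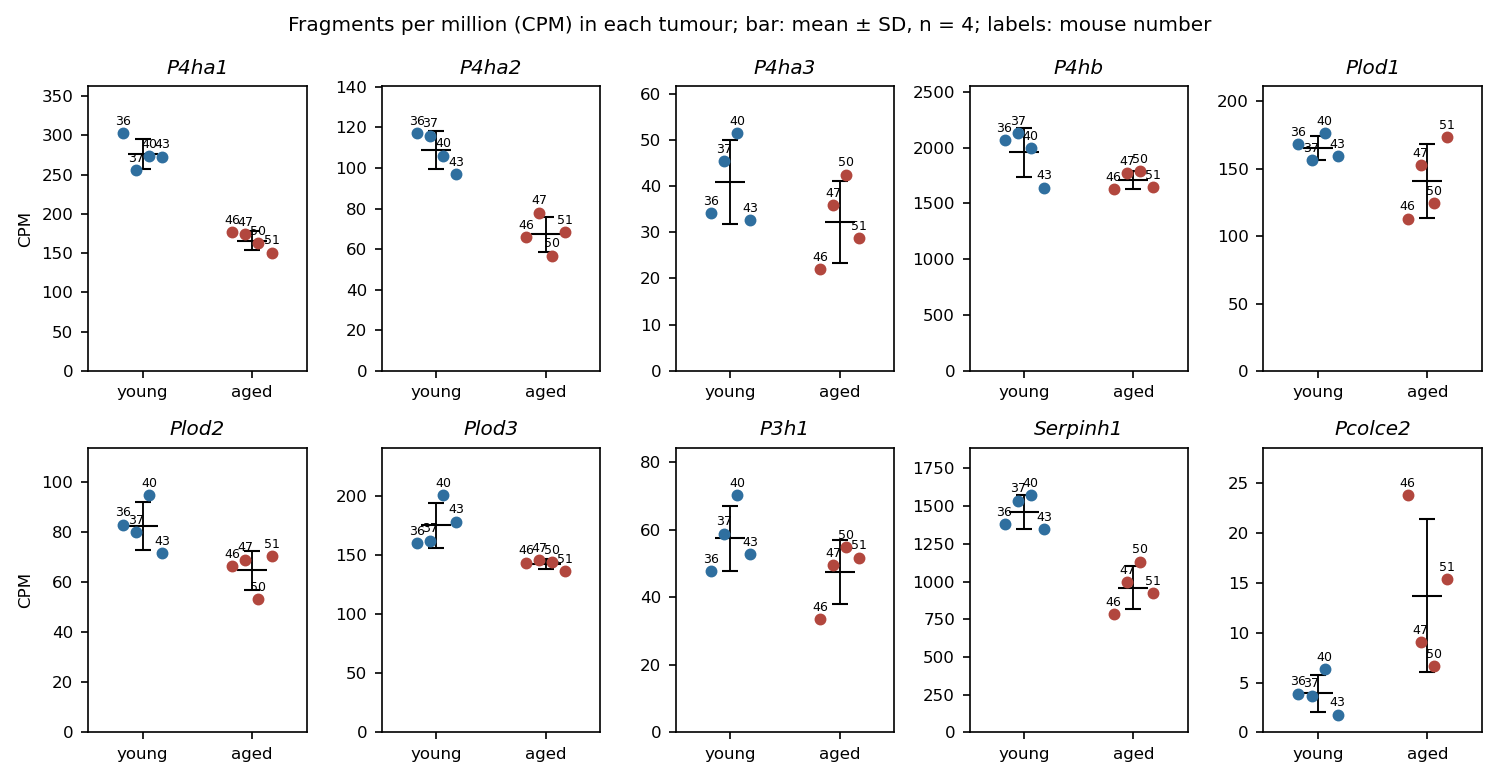
CPM of each member (vertical axes start at 0) in 4 young and 4 aged tumours, with mean ± SD and mouse numbers. P4ha1, P4ha2, Plod3 and Serpinh1 lay lower in all 4 aged tumours, Pcolce2 lay higher in all 4, and the CPM values of Plod2 were separated by little (70.4 in aged 51, 71.8 in young 43).

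The alpha subunits of prolyl 4-hydroxylase carry the active site, and P4ha1 (Entrez 18451, GRCm38 chromosome 10, 59323197 to 59373304) is the main form in most cells. P4ha1 stood at 177, 174, 162 and 151 CPM in aged 46, 47, 50 and 51, and at 302, 256, 274 and 273 CPM in young 36, 37, 40 and 43. Every aged tumour was thus below every young tumour, and the gap between the nearest pair was wider than either group's SD. The means were 165.9 ± 11.96 and 276 ± 19.4 CPM (SD, n = 4 each). This is a log2 fold change of -0.73 ± 0.11 (SE; 95% interval -0.98 to -0.47), at rank 2 of 14575 by edgeR (adjusted p = 0.738). Its adjusted p was 3.5e-06 by DESeq2 and 0.0404 by limma voom.

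P4ha2 (18452, chromosome 11, 54100924 to 54131668), the alpha subunit of a second form of the enzyme, was also lower in aged tumours. It stood at 66.1, 77.9, 56.8 and 68.3 CPM in aged 46, 47, 50 and 51 and at 117, 116, 106 and 96.9 CPM in young 36, 37, 40 and 43. The groups did not overlap, and aged 50 was the lowest of all. The log2 fold change was -0.69 ± 0.14 (95% interval -0.99 to -0.38; adjusted p = 0.738 by edgeR, 0.00343 by DESeq2 and 0.0983 by limma voom). Without aged 50 and young 36 it was -0.54, and that of P4ha1 was -0.63.

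P4ha3 (320452, chromosome 7, 100285489 to 100319701), the last alpha subunit, did not separate the ages. It ran from 21.96 CPM in aged 46 to 42.4 in aged 50, and from 32.7 in young 43 to 51.4 in young 40. The log2 fold change was -0.34 ± 0.20, with an interval from -0.80 to 0.12 that holds both no difference and one as large as that of P4ha1. Without aged 46 it was -0.21. P4hb (18453, chromosome 11, 120560298 to 120573253), whose product also forms disulphides in many other secreted proteins, stood at 1629 (aged 46) to 1789.6 CPM (aged 50) in aged tumours and at 1640.0 (young 43) to 2126 CPM (young 37) in young ones. By CPM young 43 lay within the aged range and the other 3 young tumours above it. By TMM-scaled log2 CPM young 43 (10.66) lay below all aged tumours (10.74 to 10.75). The log2 fold change of P4hb was -0.19 ± 0.12 (95% interval -0.47 to 0.09; adjusted p = 0.923 by edgeR).

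Within the family, the shares of the alpha subunits overlapped between host ages, while the ratio of P4hb to their sum did not. By FPKM (CPM per kilobase of transcript), P4ha1 made up 62.7% ± 3.43 of the summed alpha subunit level in tumours of aged hosts and 65.7% ± 3.34 in those of young hosts (SD, n = 4 each), with overlapping values. P4ha3 made up 16.7% ± 4.22 and 13.4% ± 2.86, also with overlapping values. The ratio of P4ha1 to P4ha2 was 3.08 ± 0.40 and 3.14 ± 0.31. P4hb exceeded the summed alpha subunits 10.2-, 10.1-, 10.9- and 10.9-fold in aged 46, 47, 50 and 51, and 7.56-, 8.39-, 7.53- and 6.72-fold in young 36, 37, 40 and 43. These ratios did not overlap, and they are given without a test since they restate the values of P4ha1 and P4ha2.

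Lysyl hydroxylases make hydroxylysine, and they differ in site: the product of Plod1 acts on the helix, that of Plod2 on the telopeptides, where it sets the type of cross-link, and that of Plod3 can also add sugars. Plod3 (26433, chromosome 5, 136987019 to 136996646) stood at 144, 146, 144 and 137 CPM in aged 46, 47, 50 and 51, and at 160, 162, 201 and 178 CPM in young 36, 37, 40 and 43. The aged tumours were close to each other and all below the young ones, of which young 40 was highest. The log2 fold change was -0.28 ± 0.10 (95% interval -0.51 to -0.06), and the adjusted p was 0.923 by edgeR. Exons of Plod3 overlap those of Znhit1 on the opposite strand and the microRNA gene Mir702 on the same strand, and no source used here gives the strand setting of the counting, so its values are uncertain.

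Plod2 (26432, chromosome 9, 92539636 to 92608428) stood at 66.4, 69.1, 53.3 and 70.4 CPM in aged 46, 47, 50 and 51 and at 83.1, 80.1, 94.99 and 71.8 CPM in young 36, 37, 40 and 43. Separation of the groups depended on the scaling: the CPM values did not overlap, while the TMM-scaled log2 CPM of aged 51 (6.21) lay above that of young 43 (6.15). Plod2 had a log2 fold change of -0.33 ± 0.14 (adjusted p = 0.923 by edgeR), and -0.21 without aged 50 and young 36. Plod1 (18822, chromosome 4, 147909753 to 147936776) ran from 113 (aged 46) to 173 CPM (aged 51) in aged tumours and from 157 to 176 CPM in young ones. The 2 lowest values were aged 46 and aged 50, and by CPM aged 51 was within the young range. By TMM-scaled log2 CPM aged 51 (7.50) lay above every young tumour (7.29 to 7.45). The log2 fold change of Plod1 was -0.22 ± 0.15, and -0.14 without aged 50 or -0.36 without aged 51. An exon of Plod2 overlaps an unconfirmed transcript model, Gm38391, on the opposite strand. Of the summed FPKM of the 3 genes, Plod3 made up 49.5% ± 4.12 with aged and 49.6% ± 2.22 with young hosts, and Plod2 21.97% ± 1.81 and 22.9% ± 1.56 (SD, n = 4 each).

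P3h1 (56401, chromosome 4, 119232915 to 119248977), the enzyme of a complex with the products of Crtap and Ppib, stood at 33.6, 49.5, 54.9 and 51.7 CPM in aged 46, 47, 50 and 51 and at 47.7, 58.8, 70.2 and 52.8 CPM in young 36, 37, 40 and 43. Aged 46 lay below the other 7, which overlapped. The log2 fold change was -0.26 ± 0.16 (95% interval -0.64 to 0.11), and -0.15 without aged 46. The partners of the complex, Crtap and Ppib, had log2 fold changes of -0.11 ± 0.14 and 0.01 ± 0.12, with intervals of -0.43 to 0.22 and -0.27 to 0.29.

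Serpinh1 (12406, chromosome 7, 99345375 to 99353239) encodes the chaperone that binds only collagens. It stood at 786, 995, 1131 and 925 CPM in aged 46, 47, 50 and 51 and at 1380, 1537, 1574 and 1348 CPM in young 36, 37, 40 and 43. All aged tumours were below all young tumours, with aged 46 lowest and aged 50 nearest to the young range. The means were 959 ± 144 and 1460 ± 112 CPM (SD, n = 4 each) and the log2 fold change was -0.60 ± 0.12 (95% interval -0.88 to -0.32; adjusted p = 0.773 by edgeR, 0.000872 by DESeq2 and 0.0431 by limma voom). Without aged 50 and young 36 it was -0.67, and without aged 46 it was -0.54.

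Pcolce2 (76477, chromosome 9, 95637628 to 95695551) went the other way. It stood at 23.8, 9.02, 6.62 and 15.4 CPM in aged 46, 47, 50 and 51 (768, 275, 236 and 464 fragments), and at 3.88, 3.70, 6.34 and 1.76 CPM in young 36, 37, 40 and 43 (112, 100, 183 and 63 fragments). All aged tumours were above all young tumours, but aged 50 exceeded young 40 by little, and the aged values were spread widely (SD 7.67 around a mean of 13.7 CPM). The log2 fold change was 1.85 ± 0.50 (95% interval 0.72 to 2.98), with an adjusted p of 0.923 by edgeR, 0.0553 by DESeq2 and 0.288 by limma voom. It was 1.41 without aged 46, 2.11 without aged 50 and young 36, and 1.09 by limma voom with sample weights. Pcolce, the more abundant enhancer gene, averaged 679 ± 95.01 CPM with aged hosts and 782 ± 86.8 CPM with young hosts (log2 fold change -0.19 ± 0.13, 95% interval -0.49 to 0.11). By FPKM, Pcolce2 was 0.813% to 3.44% of the summed level of both genes in aged tumours and 0.179% to 0.585% in young ones.

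Ordered by level per transcript length over the 8 tumours, P4hb came first (642 to 838 FPKM, ranks 98 to 118 of all genes within a tumour), then Serpinh1 (321 to 644 FPKM). A wide step followed to P4ha1 (36.5 to 73.3 FPKM) and Plod3 (37.5 to 55.2), and then Plod1, Plod2, P4ha2, P3h1 and P4ha3, whose medians ran from 25.5 to 11.6 FPKM. Pcolce2 came last (0.945 to 12.7 FPKM). Neighbours in this order were compared over the 8 tumours by an exact two-sided sign-flip permutation test, with adjustment over the 9 pairs, in an order set by the same values. Plod2 and P4ha2 did not pass (exact permutation, adjusted p = 0.0615), nor did P4ha2 and P3h1 (exact permutation, adjusted p = 0.375), and the other 7 pairs did. The step from Serpinh1 to P4ha1 was 3.22 ± 0.23 on the log2 scale (SD, n = 8), held in 8 of 8 tumours (exact permutation p = 0.00781, the smallest this design gives; adjusted p = 0.0141). P4ha1 was above Plod3 in 4 of 4 young and 2 of 4 aged tumours, and Plod2 above P4ha2 in 4 of 4 aged and 2 of 4 young tumours. Aged 46 was the 1 tumour in which Pcolce2 exceeded P4ha3.

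**Figure D2:**
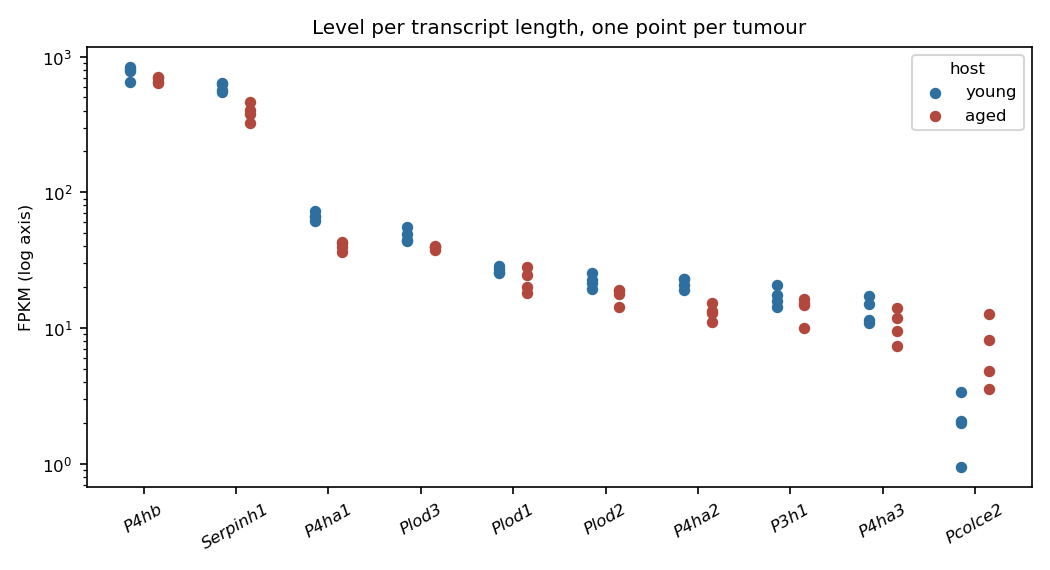
FPKM (logarithmic axis) of the 10 members in each tumour, in the order of their median. P4hb and Serpinh1 lie about an order of magnitude above the rest, and Pcolce2 spreads most, from 0.945 to 12.7 FPKM.

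The other genes of collagen maturation were read from the same fit. Over 7 lists (other modifiers, propeptide processing, lysyl oxidases, export, general folding of the endoplasmic reticulum, fibrillar collagens and hypoxia targets) 60 genes were tested, 50 were lower (44.7% of all genes tested were) and 10 higher in aged tumours, and 0 passed the adjusted threshold by edgeR. At an unadjusted p of 0.05, 11 were lower, against 2.66% of all genes, and 1 was higher, against 2.34%. DESeq2 called Col5a3 and limma voom Vegfa, 1 of the 60 each, against 0.297% and 0.0617% of all genes in either direction. The lists share tumours and some move together, so their genes are not independent. The lists too were chosen with earlier results of these data known.

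Partners that act on the same chains in the endoplasmic reticulum were read next. Of 10 other modifiers 8 were lower, with a median log2 fold change of -0.11, and 0 reached an unadjusted p of 0.05. Those with the smallest p were Colgalt2, a collagen galactosyltransferase gene (-0.56 ± 0.31), the prolyl 3-hydroxylase gene P3h3 (-0.46 ± 0.27) and the prolyl isomerase gene Fkbp14 (-0.37 ± 0.29). Fkbp10, another collagen prolyl isomerase gene, had -0.04 ± 0.19 (95% interval -0.46 to 0.38). General folding factors were lower in 10 of 10 (median -0.31), led by the disulphide isomerase gene Pdia4 (-0.61 ± 0.18, groups not overlapping), the chaperone genes Hsp90b1 (-0.43 ± 0.15) and Hyou1 (-0.33 ± 0.14), each with an adjusted p of 0.923 by edgeR.

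Of 9 genes of procollagen export 7 were lower (median -0.13). Creb3l1, which encodes a membrane-bound activator of secretory and collagen genes, had -0.49 ± 0.18 and its relative Creb3l2 -0.36 ± 0.16. Mia2, a receptor gene of large cargo, had 1.85 ± 0.78 at a low level of 0 to 0.814 CPM.

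Propeptide processing was lower in 6 of 6 tested genes (median -0.27, with Tll2 below the filter; -0.15 without young 40). The main C-proteinase gene Bmp1 had -0.17 ± 0.16, its relative Tll1 -0.74 ± 0.30 (groups not overlapping) and the N-proteinase gene Adamts14 -0.38 ± 0.18. Lysyl oxidases, which use the hydroxylysines to start cross-links, were lower in 3 of 5 (median -0.17; -0.06 without aged 46 and -0.29 without aged 51). Loxl3 had -0.43 ± 0.16, Loxl4 0.32 ± 0.22, Loxl1 -0.17 ± 0.15 and Lox 0.14 ± 0.30, so at these standard errors Lox was not distinguishable between host ages.

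**Figure D3:**
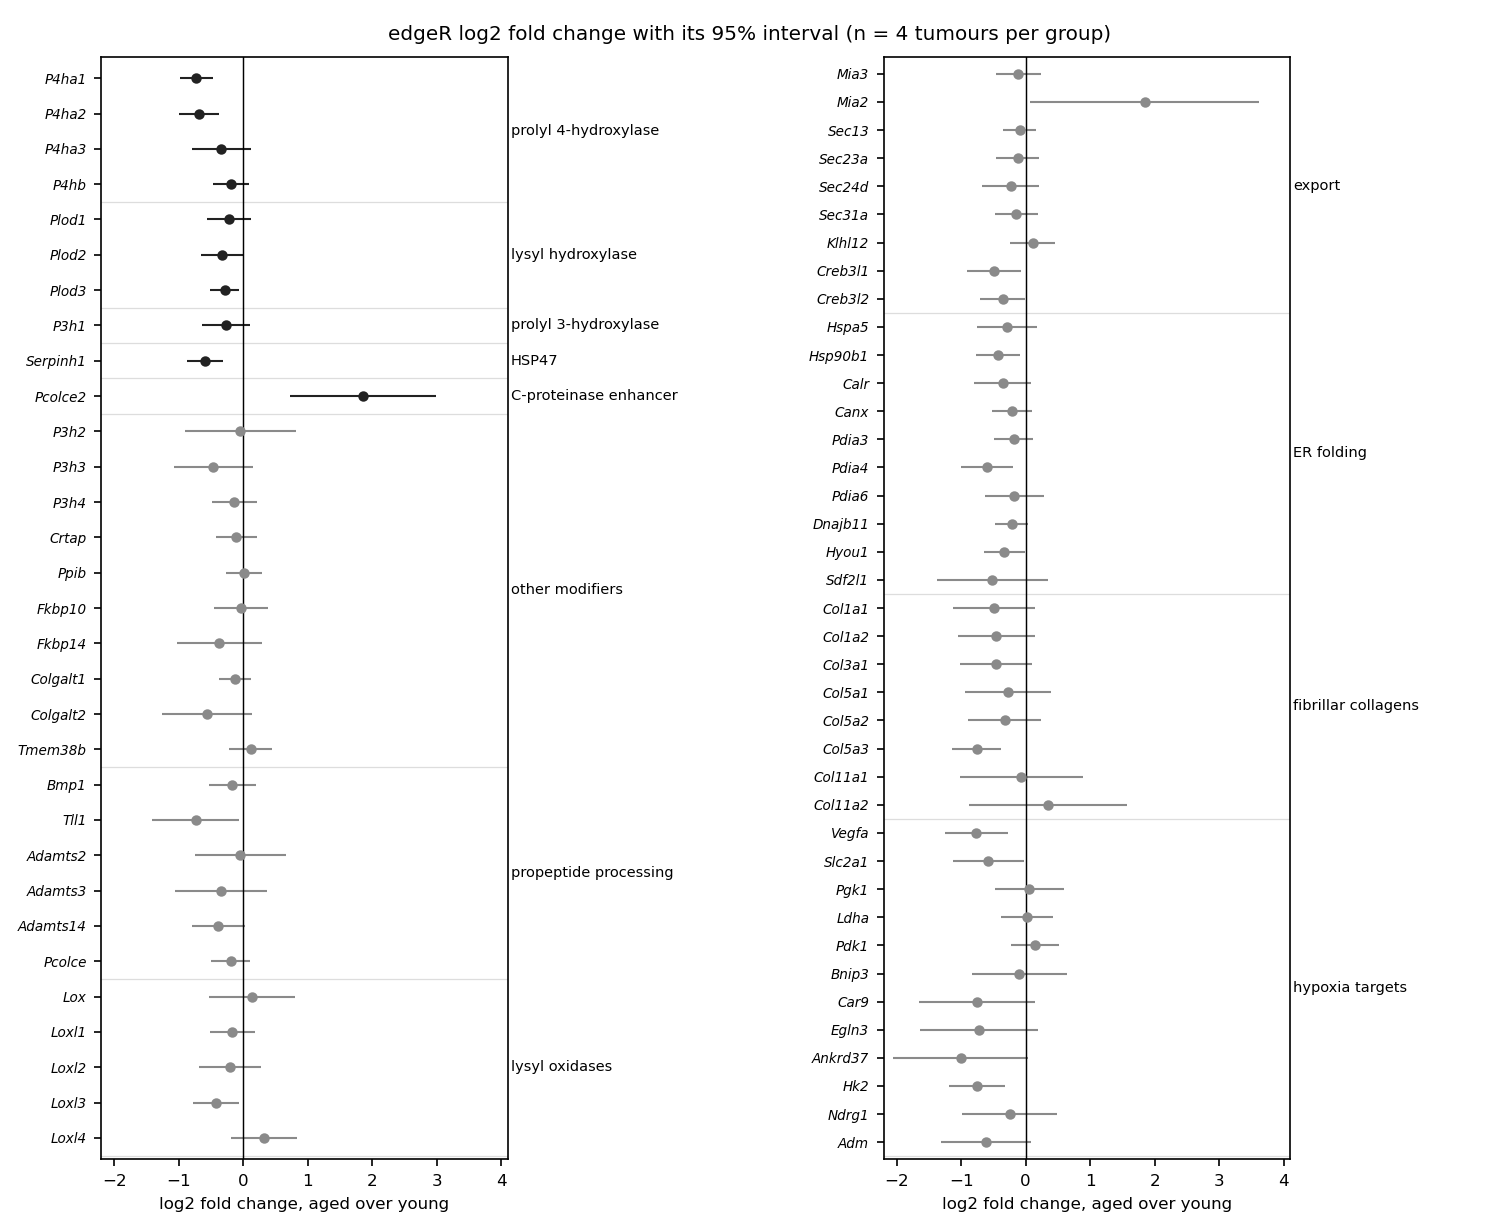
Log2 fold change (horizontal axis, aged over young) from edgeR with 95% intervals for the 10 members (black) and the 60 tested genes of the other lists (grey). Of the members, P4ha1, P4ha2, Serpinh1, Plod3 and Plod2 have intervals below 0 and Pcolce2 one above 0, without adjustment for the number of genes.

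Among the substrates, 8 fibrillar collagens had a median log2 fold change of -0.39 (7 lower), and 12 hypoxia targets had one of -0.60 (9 lower). The collagen median was -0.20 without aged 46 and -0.23 without young 40. Col1a1, Col1a2 and Col3a1 had -0.49 ± 0.28, -0.45 ± 0.26 and -0.46 ± 0.25, each with overlapping groups, and Col5a3 had -0.76 ± 0.17. Among the hypoxia targets Hk2, a hexokinase gene, had -0.75 ± 0.19, the vascular growth factor gene Vegfa -0.76 ± 0.22 and the glucose transporter gene Slc2a1 -0.58 ± 0.24. Without aged 50 and young 36 the median of the hypoxia targets was -0.32 and that of the fibrillar collagens -0.57. Without young 37 as well they were -0.0083 and -0.62. Aged 50 had the lowest hypoxia mean of the aged tumours, and young 36 and young 37 the highest of the young ones. Leaving these tumours out therefore shrinks the difference by itself. Without aged 50, aged 51 and young 36 the median of the hypoxia targets was -0.14, so its size depends on which tumours are kept. With each tumour left out in turn, it ran only from -0.71 (without aged 46) to -0.44 (without aged 50).

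The 8 tumours did not line up in one order across the members. Aged 46 was the lowest of the 8 tumours in P3h1, P4ha3, Serpinh1 and Plod1 and in the mean of the fibrillar collagens (8.15 log2 CPM, against 8.67 to 9.49 elsewhere), and the highest in Pcolce2. In P4ha1 aged 46 was the highest of the aged tumours. By TMM-scaled log2 CPM, aged 50 was the lowest in P4ha1, P4ha2 and Plod2 and in the mean of the hypoxia targets (5.37 log2 CPM, against 5.90 to 6.77), yet the highest aged tumour in P4ha3 and Serpinh1. Aged 51, with the second highest collagen mean (9.40), had a P4ha1 level of 7.30 log2 CPM, below the 8.0 to 8.30 of the young tumours.

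**Figure D4:**
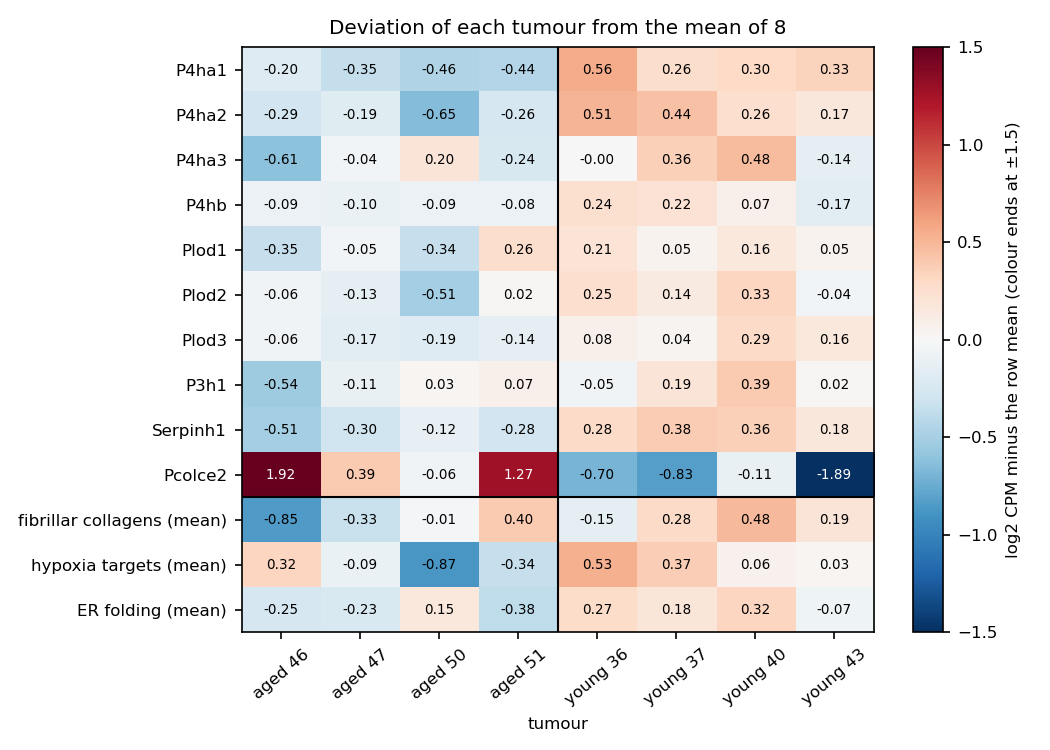
Log2 CPM of each member, and the mean of 3 lists, minus its own mean over the 8 tumours (colour; values printed; the scale ends at ±1.5). The rows of P4ha1, P4ha2 and Serpinh1 change sign between aged and young tumours, while P3h1 and the fibrillar collagens are lowest in aged 46.

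Among the 9 members other than Pcolce2, all 36 pairs had positive Pearson correlations of log2 CPM over the 8 tumours, from 0.23 (P4ha3 with Plod2) to 0.92 (P4ha1 with P4ha2), with a median of 0.61. The next highest was P4ha3 with P3h1, at 0.88. Pcolce2 was negatively correlated with each of the 9, from -0.17 (Plod2) to -0.80 (Serpinh1). These points share library scaling and the difference between host ages, and are given as a description.

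Relations of the 10 members with the means of 8 fibrillar collagens and of 12 hypoxia targets were computed over the 8 tumours, 20 in all. P3h1 followed the fibrillar collagens (Pearson r = 0.94, exact permutation p = 0.000372, adjusted p = 0.00744; Spearman rho = 0.952, exact permutation p = 0.00114, adjusted p = 0.0228; n = 8). Without aged 46 and aged 47, the tumours farthest from the median, r was 0.79. It was the 1 relation of the 20 with an adjusted p under 0.05. The permutation pooled the host ages, and P3h1 and most of these collagens were lower in aged tumours. Both values of a tumour also share library scaling, so this relation includes these sources. With the hypoxia targets, P4ha2 had r = 0.81 (exact permutation p = 0.0121, adjusted p = 0.121) and P4ha1 r = 0.74 (exact permutation p = 0.0287, adjusted p = 0.144), and without aged 50 and young 36 these were 0.47 and 0.54. Their rho was 0.762 (exact permutation p = 0.0368, adjusted p = 0.245) and 0.786 (exact permutation p = 0.0279, adjusted p = 0.245). Both genes separate by host age, so these pooled values include the difference between the ages, and a relation within an age was not computed. Plod2 and the hypoxia targets had r = 0.78 (exact permutation p = 0.0263, adjusted p = 0.144) and rho = 0.643 (exact permutation p = 0.0962, adjusted p = 0.275), and r was 0.20 without aged 50 and young 36, so it rests on those tumours. Aged 46, with a hypoxia target mean of 6.56, had a P4ha1 level of 7.54 log2 CPM, and young 37, with 6.61, one of 8.0. Single targets of this pair differed in both directions. Hk2 stood at 93.1 CPM in aged 46 and 116 in young 37, and Pgk1 at 1530 and 1182. The part of hypoxia in the P4ha1 difference was not tested. No batch is given in the labels, and neither host age holds the 6 tumours a correlation within it would need.

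**Figure D5:**
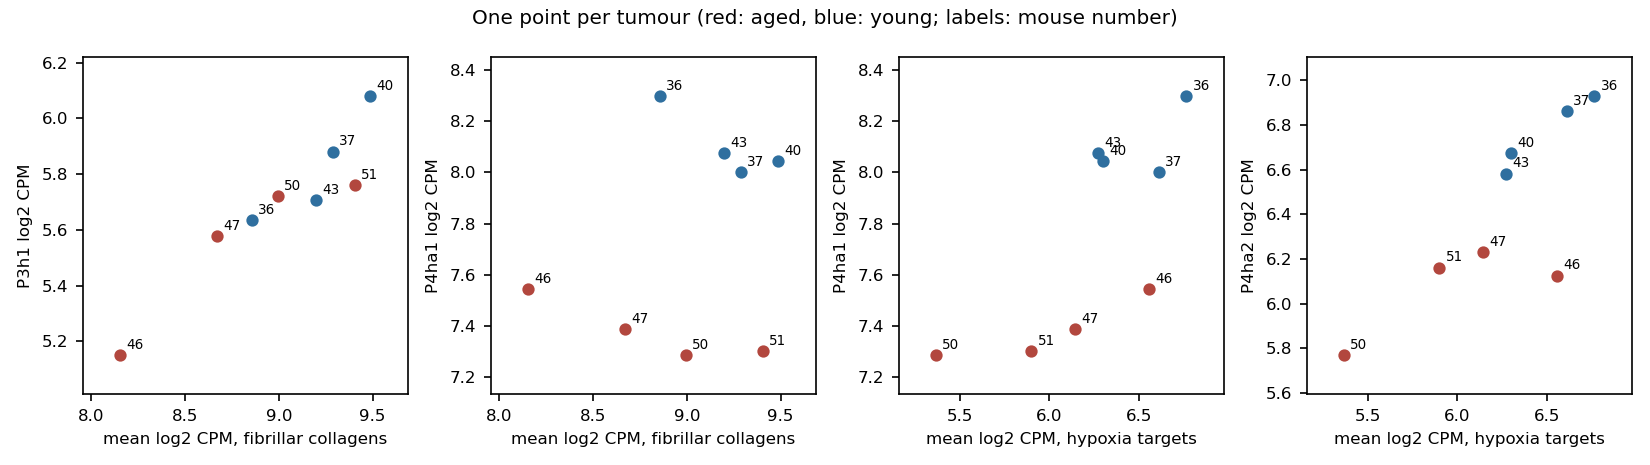
Log2 CPM of P3h1, P4ha1 (in both middle panels) and P4ha2 against the mean log2 CPM of the fibrillar collagens or the hypoxia targets, 1 point per tumour. P3h1 rises with the collagens from aged 46 to young 40, while P4ha1 forms an aged group at 7.29 to 7.54 and a young group at 8.0 to 8.30.

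Of 10258 other genes with a mean of at least 3 log2 CPM, those most like P4ha1 over the 8 tumours were the telomere-binding protein gene Terf1 (Pearson r = 0.94), 9430015G10Rik (0.94) and the deubiquitinase gene Usp21 (0.93). Those most like Serpinh1 were Dpysl2 (0.96), Slc35a1 (0.96) and the proteoglycan gene Bgn (0.94), and those most like Plod2 were Apold1 (0.94), the syndecan gene Sdc2 (0.93) and the histone deacetylase gene Hdac5 (0.91). With so many genes and 8 tumours, such values are a description of likeness only.

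Markers of other cells were read beside the members. Of 8 fibroblast markers 7 were lower in aged tumours, with sums of 982 (aged 46) to 2119.7 CPM with aged hosts and 1995 to 2625 CPM with young hosts. Pdgfrb, a receptor gene of fibroblasts and mural cells, had a log2 fold change of -0.88 ± 0.20 and no overlap. Aged 47, 50 and 51, at 2033 to 2119.7 CPM, lay within the young range of the sum of fibroblast markers. All 6 adipocyte markers were higher in aged tumours, with sums of 43.3 (aged 46) to 507 CPM (aged 51) against 32.8 to 216 CPM. Aged 46, the tumour highest in Pcolce2, was the lowest of the aged tumours in adipocyte markers. Of all 8 tumours it had the lowest sums of fibroblast, endothelial, macrophage, T cell, smooth muscle and skeletal muscle markers. Macrophage markers (4 of 6 lower) summed to 521 to 1008 CPM with aged and 860 to 1094 CPM with young hosts, and endothelial markers (3 of 6 lower) to 206 to 372 and 253 to 323 CPM. Smooth muscle markers (6 of 6 higher) summed to 84.1 to 723 and 141 to 562 CPM, skeletal muscle markers (5 of 5 tested higher) to 10.4 to 114 and 11.5 to 39.6 CPM, T cell markers (5 of 6 higher) to 11.8 to 69.9 and 13.0 to 50.0 CPM, and epithelial markers (5 of 6 higher) to 68.3 to 507 and 47.2 to 290 CPM. Of the prostate secretory markers 4 of 6 were higher, and 2 of 3 tested seminal vesicle markers were lower. At an unadjusted p of 0.05, edgeR gave 0 adipocyte, smooth muscle, skeletal muscle, T cell, epithelial or seminal vesicle markers. It gave 1 fibroblast, 1 endothelial, 1 macrophage and 2 prostate secretory markers, against 4.99% of all genes in either direction. Of all genes tested, 44.7% were lower in aged tumours. In none of these lists was a marker at 0 in all tumours; Lep, Ckm, Myh4, Msmb, Svs3a, Svs3b and Svs6 were at 0 in some. The part of these cells in the members' differences was not tested.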

How the data were processed

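Per the labels' protocols, libraries were made with a stranded TruSeq mRNA kit from 1 µg of RNA and sequenced as 50 bp paired ends. Per the submitters' processing notes, bcl2fastq, TopHat2 2.0.12, Picard 2.7.1 and GRCm38 (mm10) were used; no source used here gives the counting program or its strand setting. The authors deposited a fragment count per Entrez gene, FPM (which equals CPM, the count scaled by the total of its table) and FPKM (that value per kilobase of the transcript length, in bases, in the same table). 27 symbols that had become dates were restored through a RefSeq table of GRCm38.

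Counts were tested with edgeR 4.0.16 (R 4.3.3): filterByExpr (minimum count 10, minimum total 15), TMM factors and a robust quasi-likelihood fit with host age alone. The standard error is the fold change over the root of F, and intervals are 95% ones at the degrees of freedom of the fit. Log2 CPM has a prior count of 2. DESeq2 1.42.0, limma 3.58.1 (voom with sample weights), other scalings and filters, and tumours left out were the alternatives. At 27.1 to 35.7 M fragments, 3 fragments are 0.084 to 0.111 CPM, which covers counting error only. The labels give each tumour its own mouse. On simulated counts of this comparison (14428 genes), 39 of 100 genes changed 2-fold and 79 of 100 changed 4-fold were recovered, with 9 false calls.

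The members and lists were chosen with earlier results of these data known, P4ha1 among them. All members are named, with the 3 smallest p-values of each list and 10 fixed genes; likeness took the 3 highest Pearson correlations. Promoters come from RefSeq (GRCm38.p6) and overlaps from GENCODE. Protein sequences were not used here.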

Additional observations from a re-analysis of the deposited data

How the results depend on the processing

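Under all 19 alternatives, each of the 10 members kept the sign of its log2 fold change, and 9 of 10 stayed lower in aged tumours. The number of all genes called was 0 by edgeR under every scaling, filter and exclusion run, 43 by DESeq2 and 9 by limma voom. The number of members called was 0 by edgeR, 3 by DESeq2 and 2 by limma voom; the cause of the difference between tools was not tested. Leaving out each tumour in turn, the log2 fold change ran from -0.79 to -0.65 for P4ha1, -0.74 to -0.59 for P4ha2, -0.66 to -0.54 for Serpinh1 and 1.41 to 2.15 for Pcolce2, and the members called stayed at 0. Without aged 50, aged 51 and young 36, which leaves 2 aged and 3 young tumours, the median log2 fold change was -0.88 for the fibrillar collagens, -0.36 for the lysyl oxidases, -0.36 for export, -0.29 for the other modifiers and -0.14 for the hypoxia targets, with fewer tumours in the fit. Without aged 50, young 36 and young 37 it was -0.0083 for the hypoxia targets and -0.27 for export. With each tumour left out in turn, the median ran from -0.55 (without aged 51) to -0.20 (without aged 46) for the fibrillar collagens, and from -0.29 (without aged 51) to -0.06 (without aged 46) for the lysyl oxidases, which had -0.08 by limma voom. For the hypoxia targets it ran from -0.71 (without aged 46) to -0.44 (without aged 50). Prior counts of 0.5 and 5 changed no call among the 20 relations. Of the members, Pcolce2 has the fewest fragments, 63 in young 43, so counting error weighs most there.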
